A study of Mus musculus with 18 samples.

Results

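The Toll-like receptors and their coreceptor CD14 were followed in RNA-seq libraries of mouse bone marrow-derived dendritic cells. The group holds 10 of the 62197 genes measured: *Tlr1*, *Tlr2*, *Tlr3*, *Tlr4*, *Tlr6*, *Tlr7*, *Tlr8*, *Tlr9*, *Tlr13* and *Cd14*. It was chosen by gene name, as a receptor family known to act in these cells. *Tlr5*, *Tlr11* and *Tlr12* are not in it and did not exceed 163 normalized counts in any of the 18 libraries. The study asked how dendritic cells respond to being squeezed, and what part the enzyme cPLA_2_, encoded by *Pla2g4a*, has in it.

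Each of the 6 groups has 3 libraries. The control cells are called cPLA_2_ WT (WT) here and the knockout cells cPLA_2_ KO (KO). The study's methods describe the knockout as floxed *Pla2g4a* deleted by a Cre recombinase driven by *Itgax*, the CD11c gene, on a C57BL/6 background. Bone marrow was grown for 10 days with GM-CSF, and nonconfined cells were collected at the end of that culture. Confined cells were held at a height of 3 µm and collected after 4 h. By their labels, LPS cells received 100 ng/ml for 30 min, were washed, and were collected the next day. The methods give a slightly shorter pulse, and the protocol text of every sample mentions LPS, so only the titles and treatment labels tell which cells were left without it. Such a Cre acts only in cells that express CD11c. The methods say that granulocytes and macrophages also arise in these cultures and are separated off by how they adhere, and that the semiadherent cells, mostly CD11c positive, are kept as dendritic cells. None of the 6 groups is labelled as untreated cells kept for a further 4 h or a further night. Time and confinement are therefore not separated, and LPS is likewise not separated from a further night in culture. The labels give neither the age nor the sex of the mice. The methods give an age range in weeks for the bone marrow donors, and state that mice of either sex were used.

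Toll-like receptors are membrane proteins of innate immune cells that bind molecules shared by many microbes. Those at the cell surface mostly bind lipids and lipopeptides of bacteria, and those in endosomes bind nucleic acids. Nearly all of them signal through the adaptor MyD88, TLR3 signals through TRIF and TLR4 through both, toward the transcription factors NF-κB and IRF, which turn on cytokine genes and dendritic cell maturation.

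Values are the authors' normalized counts, in the order of the replicate numbers. Changes are log2 fold changes ± standard error from 1 limma fit of all 18 libraries, tested in 17875 genes, with 3 libraries a group unless the LPS labels are pooled to 6. A gene is called where its adjusted p, corrected over all tested genes of a comparison, is below 0.05.

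The genotype labels held in the nonconfined and the confined libraries but not in the LPS libraries. *Pla2g4a* read 697, 686 and 770.4 in nonconfined WT against 548, 542 and 533 in nonconfined KO (log2 fold change -0.41 ± 0.059, adjusted p = 0.00019). When confined it read 1369, 1430.3 and 1321 against 923, 871 and 919.5 (-0.60 ± 0.059, adjusted p = 3.81e-08). Every KO library lay below every WT library in both settings, with much of the transcript still present. The LPS libraries labelled WT read 1005, 969 and 967 and those labelled KO 1065, 1032 and 1028, a difference of 0.09 ± 0.059 (adjusted p = 1).

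The Y-linked *Ddx3y*, looked at after the values were seen, set the same libraries apart. It stayed at or below 3.05 in all 6 nonconfined and confined WT libraries and at or above 874 in all 6 KO libraries. In LPS it read 1271, 0 and 662 under the WT label and 2.12, 1476 and 783 under the KO label, so each label covers a library nearly without it, a library high in it and an intermediate one. The LPS labels are therefore not read as genotypes, and LPS results are given mainly with the labels pooled. By *Ddx3y* each library under the WT label has a near match under the KO label (1271 and 1476, 0 and 2.12, 662 and 783). Whether matched libraries come from the same cells was not tested. If they do, the pooled libraries are fewer than 6 independent samples, and the pooled standard errors and adjusted p values are too small. *Xist* was high in all 18 libraries (12153 to 33681), lower in KO than in WT when nonconfined (-1.04 ± 0.18, adjusted p = 0.0011) and not called when confined (-0.46 ± 0.18, adjusted p = 0.0514). Outside LPS, the KO libraries hold male cells and the WT libraries do not by *Ddx3y*, so genotype and donor sex cannot be told apart.

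CD14 is the coreceptor that hands LPS to the TLR4 complex. Nonconfined libraries had 1945, 1809 and 1943 normalized counts of *Cd14* in WT and 1989, 1857 and 2102 in KO. Confined libraries had 136116, 129232 and 129184 in WT but 16689, 16089.9 and 16508 in KO. LPS libraries had 81537, 96073 and 83506 under the WT label and 91141, 77902 and 85631 under the KO label. Confined WT libraries were thus the highest, LPS libraries next, confined KO libraries a clear step lower, and nonconfined libraries lowest, with overlap only between the nonconfined genotypes and between the LPS labels. Confinement raised *Cd14* by a log2 of 6.11 ± 0.062, adjusted p = 4.17e-25, in WT and by 3.05 ± 0.062, adjusted p = 3.62e-19, in KO. The change in KO minus that in WT was -3.06 ± 0.088, adjusted p = 5.22e-17. In bulk RNA, fewer cells of a type and less RNA per cell give the same reading, here and in every result that follows.

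TLR4 is the LPS receptor itself. Its gene rose with confinement as *Cd14* did, but more in KO than in WT, and it fell after LPS. *Tlr4* read 5804, 5908 and 6051 in nonconfined WT and 6027, 6149 and 6103 in nonconfined KO. It read 7958, 7513 and 7539 in confined WT and 10504, 10076 and 10271 in confined KO. After LPS it read 4325, 4576 and 4324 under the WT label and 4468, 4334 and 4405 under the KO label. Confined KO libraries were highest, confined WT libraries next, nonconfined libraries of both genotypes lay together below them, and LPS libraries were lowest, without overlap between these levels. Confinement raised *Tlr4* in WT (0.37 ± 0.039, adjusted p = 4.81e-08) and more in KO (0.75 ± 0.039, adjusted p = 1.6e-12). The change after LPS had the other sign (-0.45 ± 0.028, adjusted p = 3.19e-12).

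TLR2 binds bacterial lipopeptides together with TLR1 or TLR6. *Tlr2* read 10388, 10270.1 and 10224 in nonconfined WT and 12337, 12022 and 12158 in nonconfined KO. It read 45855, 44287 and 44375 in confined WT against 19093, 17783 and 18895 in confined KO. LPS libraries reached 50121, 49296 and 48793 under the WT label and 48487, 50492 and 49955 under the KO label. Confined WT cells came close to the LPS level, while confined KO cells stayed less than midway, and only the LPS groups overlapped. The change with confinement was 2.12 ± 0.037, adjusted p = 3.01e-21, in WT and 0.61 ± 0.037, adjusted p = 1.5e-11, in KO.

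*Tlr1*, whose product pairs with TLR2 for triacylated lipopeptides, read 501, 466 and 482 in nonconfined WT and 449.7, 471 and 429 in nonconfined KO. When confined it read 525, 480.2 and 461 in WT and 304, 333 and 305 in KO. LPS libraries read 2705, 1951 and 2498 under the WT label and 2069, 3036 and 2597 under the KO label. The confined KO libraries were the lowest of all, the confined WT libraries overlapped the nonconfined ones, and the LPS libraries lay far above. In KO *Tlr1* fell with confinement (-0.52 ± 0.12, adjusted p = 0.000879). In WT it was not called (0.02 ± 0.12, adjusted p = 0.925).

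*Tlr6*, whose product pairs with TLR2 for diacylated lipopeptides, read 562, 553 and 629.9 in nonconfined WT and 589, 644 and 541 in nonconfined KO. Confined libraries read 741, 708 and 642 in WT and 850.3, 803 and 900.4 in KO, and LPS libraries 1394, 1264 and 1431 (labelled WT) and 1203, 1507 and 1371 (labelled KO). LPS libraries were highest and confined KO libraries next. Confined WT libraries lay above the nonconfined WT libraries and overlapped the nonconfined KO libraries. Confinement raised *Tlr6* in KO (0.53 ± 0.089, adjusted p = 4.73e-05) and slightly in WT (0.26 ± 0.089, adjusted p = 0.0159). The WT call was lost without replicate 1 or replicate 2 of nonconfined WT (adjusted p = 0.0554 and 0.0657) without replicate 1 of confined WT (0.0738), and with libraries scaled to the same total (0.736). *Tlr1* and *Tlr6* lie 17762 bases apart on chromosome 5 and share 454 stretches of 50 bases, 13.1% of those of *Tlr1* and 9.31% of those of *Tlr6*, so part of the reads of either could be placed on both.

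TLR3 binds double-stranded RNA in endosomes. *Tlr3*, among the least expressed members, read 223, 218 and 194 in nonconfined WT and 223, 271 and 248 in nonconfined KO. Confined WT libraries read 273, 301 and 288, and confined KO libraries only 92.8, 55.5 and 72.0. LPS libraries read 615, 623 and 719 under the WT label and 695, 581 and 709 under the KO label. The confined genotypes thus moved in opposite directions from the nonconfined level, and the LPS libraries stood above all others. *Tlr3* rose in WT (0.44 ± 0.14, adjusted p = 0.0118) and fell in KO (-1.77 ± 0.14, adjusted p = 1.61e-09). The WT rise was small and was not called without replicate 3 of nonconfined WT (0.38, adjusted p = 0.0555) or with libraries scaled to the same total (0.22, 0.202), whereas the fall in KO was called in every setting.

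TLR7 and TLR9 are the endosomal sensors of single-stranded RNA and of unmethylated CpG DNA. *Tlr7* read 2618, 2775 and 2737 in nonconfined WT and 2567, 2869 and 2683 in nonconfined KO. It read 3959.9, 3844 and 3939.7 in confined WT and 3945, 3862 and 3779 in confined KO, and 5284, 4436 and 4902 (labelled WT) and 4439, 5465 and 4846 (labelled KO) in LPS. Confined libraries lay above nonconfined libraries in both genotypes, WT and KO overlapped in each of these states, and LPS libraries lay above the confined ones. Its change with confinement was 0.53 ± 0.067, adjusted p = 6.31e-07, in WT and 0.51 ± 0.067, adjusted p = 1.82e-06, in KO.

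*Tlr9* read 1836, 1707 and 1794 in nonconfined WT and 1237, 1762 and 1407 in nonconfined KO. It read 1328, 1379.7 and 1363 in confined WT and 1062, 986 and 1019.8 in confined KO, and 2038, 1833 and 1903 (labelled WT) and 1817, 1729 and 1732 (labelled KO) in LPS. It was the only member that fell with confinement in both genotypes, and confined KO libraries were the lowest of the 18. The nonconfined KO libraries spread widely and overlapped those of WT and of confined WT. The change was -0.39 ± 0.084, adjusted p = 0.000462, in WT and -0.51 ± 0.084, adjusted p = 4.29e-05, in KO.

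TLR8 is an endosomal relative of TLR7, encoded 39432 bases from it on the X chromosome. *Tlr8* read 860.3, 893 and 966 in nonconfined WT and 885, 959 and 899.7 in nonconfined KO. It read 737, 789 and 723 in confined WT and 1314, 1279 and 1286 in confined KO, and 464, 434 and 475 (labelled WT) and 458, 524 and 381 (labelled KO) in LPS. Confinement thus moved it down in WT and up in KO from levels that overlapped, and the LPS libraries were lowest. The changes were -0.27 ± 0.087, adjusted p = 0.0111, in WT and 0.50 ± 0.087, adjusted p = 7.53e-05, in KO. The fall in WT was not called without replicate 3 of nonconfined WT (-0.23, adjusted p = 0.0608).

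TLR13 recognizes bacterial ribosomal RNA in mice and has no human counterpart. Its gene also lies on the X chromosome. Outside LPS only the KO libraries hold male cells, so its genotype differences cannot be told apart from donor sex. *Tlr13* read 6017, 6243 and 6249.9 in nonconfined WT and 7216, 7420.1 and 7404 in nonconfined KO. It read 6491, 6479 and 6087 in confined WT and 10224, 9421 and 9589 in confined KO, and 6263, 5701 and 6121 (labelled WT) and 5412, 6331 and 5860.4 (labelled KO) in LPS. Confined KO libraries were highest, nonconfined KO libraries next, and the other 4 groups overlapped below them. *Tlr13* rose with confinement in KO (0.41 ± 0.053, adjusted p = 1.79e-06) and was not called in WT (0.04 ± 0.053, adjusted p = 0.528), where scaling to the same total made it a fall (-0.18, adjusted p = 0.00194).

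**Figure D1:**
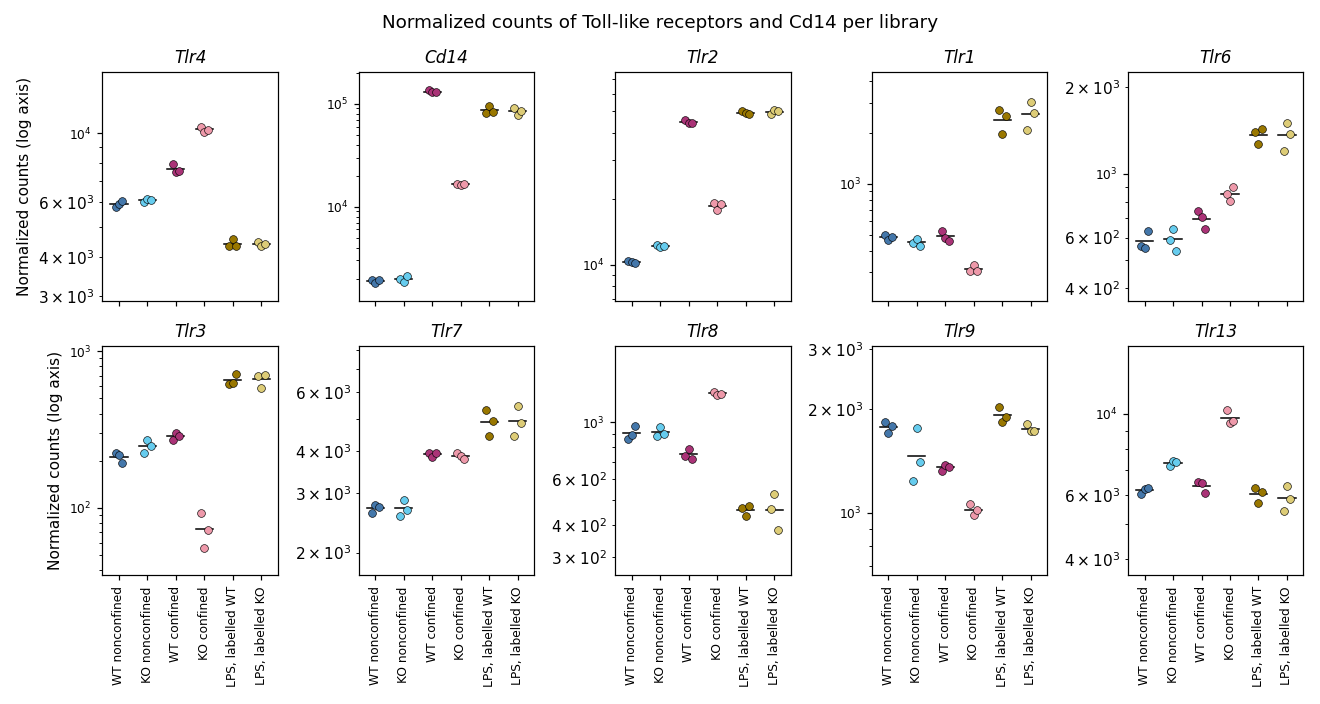
Normalized counts of each of the 10 genes (log axis) in the 18 libraries by group, 1 point a library and a black bar at each group mean. *Cd14* spans the widest range, from 1809 in a nonconfined WT library to 136116 in a confined WT library.

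Per kilobase of exons, *Tlr2* was the most abundant member in nonconfined cells, at a mean of 1872 normalized counts per kb in WT and 2214 in KO, followed by *Tlr13* (1302 and 1551) and *Cd14* (1097 and 1145). In confined and in LPS cells *Cd14* came first, at 75929.8 per kb in confined WT, 9486 in confined KO, and 50253 and 49013 under the LPS labels. *Tlr2* came next and *Tlr13* after it in these 4 groups, without overlap between libraries. *Tlr3* was the least abundant member on this scale in all groups but the LPS groups, where *Tlr8* was. Taking the longest transcript in place of all exons changed 20 of the 60 ranks. By that length *Tlr4* passed *Tlr13* in confined WT (1864 against 1369 per kb), confined KO (2499 against 2100.1) and nonconfined WT (1439 against 1329.7), and it passed *Cd14* in both nonconfined groups.

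In WT cells, confinement changed most of the group. The LPS coreceptor gene *Cd14* and the lipopeptide receptor gene *Tlr2* carried by far the largest rises, and the other changes were small. Rises were called for 6 of 10 members, where 28.2% of all tested genes rose, and falls for 2, where 28.4% fell. Among these 10 the share that rose is above that of all genes, and the share that fell is not. The faint *Tlr5* (-0.87 ± 0.30, adjusted p = 0.0188), *Tlr11* (-1.78 ± 0.44, adjusted p = 0.00144) and *Tlr12* (-3.89 ± 0.64, adjusted p = 1.99e-05), outside the group, all fell. The median log2 fold change was 0.317 over the members and -0.00548 over all tested genes. *Tlr9* and *Tlr8* were the members that fell. With libraries scaled to the same total 7 members were called, 4 up and 3 down, without *Tlr3* and *Tlr6* and with *Tlr13* as a fall. In that setting most called genes fell, so the shares of all genes above are not the background of this count.

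All 14 genes listed in textbooks as targets of such receptors, whose dependence on them was not tested here, rose (median 6.83), led by *Cxcl1* (8.80 ± 0.22), *Ptgs2* (8.76 ± 0.072) and *Il1b* (8.45 ± 0.072). Of 12 downstream transcription factor genes 11 rose and 1 fell (median 1.1), with *Rel* at 2.25 ± 0.088 and *Nfkb1* at 2.10 ± 0.040. Of 12 inhibitor genes 9 rose and 2 fell (median 1.14), with *Tnfaip3* at 4.34 ± 0.065. Of 17 adaptor and proximal kinase genes 12 rose and 2 fell (median 0.502), with *Peli1* at 1.99 ± 0.065 and *Irak3* at 1.91 ± 0.068. The 16 accessory, folding and trafficking genes split evenly, 8 up and 8 down (median -0.0485), with *Slc15a3* at 1.78 ± 0.047 and *Ly86*, whose product partners the receptor relative CD180, at -1.72 ± 0.28.

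In KO cells, confinement changed every member, but the large rises seen in WT were smaller and *Tlr3* and *Tlr1* fell. Rises were called for 7 members (22.8% of all tested genes) and falls for 3 (23.4%), *Tlr3*, *Tlr1* and *Tlr9*. The share of rises is far above that of all genes, and the share of falls slightly above it. Outside the group *Tlr11* (-1.46 ± 0.44, adjusted p = 0.00922) and *Tlr12* (-3.50 ± 0.64, adjusted p = 0.000113) fell, and *Tlr5* was not called (-0.24 ± 0.30, adjusted p = 0.54). The median was 0.507 over members and 0.0102 over all genes. Of the 14 target genes 10 rose and 1 fell (median 0.942), with *Ptgs2* at 4.79 ± 0.072 and *Cxcl2* at 4.40 ± 0.15. Transcription factor genes counted 7 up and 4 down (median 0.173), with *Irf7* at -1.29 ± 0.047 and *Rel* at 1.07 ± 0.088. Inhibitor genes counted 8 up and 3 down (median 0.557), adaptor genes 10 up and 3 down (0.232), and accessory genes 6 up and 6 down (-0.0298).

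**Figure D2:**
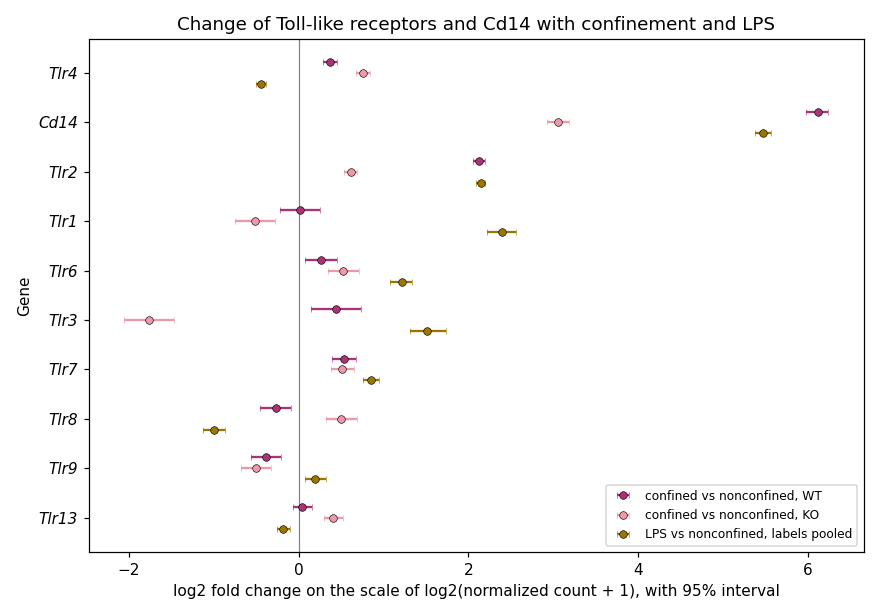
Log2 fold change over nonconfined cells (horizontal axis, with 95% interval) of each of the 10 genes for confined WT, confined KO and LPS with the labels pooled. *Cd14* shows 6.11, 3.05 and 5.47, and *Tlr3* changes sign between confined WT (0.44) and confined KO (-1.77).

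Tested directly, the response to confinement differed between the genotypes for most members, in both directions. *Cd14*, *Tlr3* (-2.21 ± 0.20, adjusted p = 1.91e-08), *Tlr2* (-1.51 ± 0.052, adjusted p = 1.22e-15) and *Tlr1* (-0.53 ± 0.16, adjusted p = 0.0189) responded lower in KO. *Tlr8* (0.77 ± 0.12, adjusted p = 5.51e-05), *Tlr4* (0.38 ± 0.056, adjusted p = 1.71e-05) and *Tlr13* (0.37 ± 0.075, adjusted p = 0.000793) responded higher. That makes 4 lower, where 15.6% of all tested genes were lower, and 3 higher, where 10.2% were, both above the shares of all genes. The medians were -0.0668 over members and 0.0511 over all genes. *Tlr6* (0.27 ± 0.13, adjusted p = 0.13), *Tlr7* (-0.02 ± 0.094, adjusted p = 0.926) and *Tlr9* (-0.12 ± 0.12, adjusted p = 0.53) were not called, which does not show that their responses were equal. *Tlr1* was not called without replicate 1 of confined WT (-0.48, adjusted p = 0.0522) or with libraries scaled to the same total (-0.34, 0.0891).

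In the same test every target gene responded lower in KO, 14 of 14 (median -3.69), with *Il12b* at -6.66 ± 0.15, *Cxcl10* at -6.04 ± 0.11 and *Il6* at -5.97 ± 0.12. Among transcription factor genes 9 of 12 were lower and 0 higher (median -0.99), with *Irf7* at -2.60 ± 0.066. Inhibitor genes counted 7 lower and 1 higher (median -0.959), with *Tnfaip3* at -3.33 ± 0.091. Adaptor genes counted 8 lower and 1 higher of 17 (median -0.199), with *Peli1* at -1.77 ± 0.092 and *Myd88*, the shared adaptor, at -0.99 ± 0.076. Accessory genes counted 2 lower and 1 higher of 16 (median 0.0178).

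Without confinement the genotypes differed little in this group. *Tlr2* (0.24 ± 0.037, adjusted p = 0.000256) and *Tlr13* (0.25 ± 0.053, adjusted p = 0.00452) were higher in KO, each with all 3 KO libraries above all 3 WT libraries. That is 2 members where 4.78% of all genes were higher, and *Tlr9* alone was lower (-0.29 ± 0.084, adjusted p = 0.0347), where 4.11% were. These shares of all genes are unsteady, since the genes called ran from 756 to 2097 with 1 library left out. The median was 0.032 over members and -0.00156 over all genes. Libraries of the 2 genotypes did not overlap for 3 of 10 members, a share near the 28.6% of all tested genes. The third of these members, *Tlr3*, was not called (0.22 ± 0.14, adjusted p = 0.387). The *Tlr9* call was lost when any library of nonconfined WT was left out (adjusted p = 0.115, 0.0622 and 0.104 for replicates 1, 2 and 3), without replicate 1 or 3 of nonconfined KO (0.233 and 0.125), with the replicate block (0.0548), with no filter (0.0613) and with the compared conditions alone (0.0521). Over all settings its adjusted p ran from 0.000239 to 0.233. Of the lists, target genes counted 5 higher and 2 lower in KO, accessory genes 4 and 1, transcription factor genes 2 and 0, inhibitor genes 1 and 0, and adaptor genes 0 and 0. Markers of other cells moved too, with neutrophil genes at 6 higher and 0 lower in KO (median 0.455). Macrophage genes counted 3 and 0, eosinophil genes 3 and 1, and mast cell and basophil genes 2 and 0. Dendritic cell genes counted 2 and 1, and conventional DC type 1 and T cell genes 1 and 0 each. Plasmacytoid DC and B cell genes counted 0 and 0. Their part was not tested.

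Under confinement the genotypes stood far apart. *Cd14* (-3.00 ± 0.062, adjusted p = 7.41e-20) and *Tlr3* (-1.98 ± 0.14, adjusted p = 2.14e-10) were much lower in KO, and *Tlr2* (-1.27 ± 0.037, adjusted p = 2.77e-17), *Tlr1* (-0.63 ± 0.12, adjusted p = 0.000136) and *Tlr9* (-0.41 ± 0.084, adjusted p = 0.000538) were also lower. *Tlr8* (0.79 ± 0.087, adjusted p = 2.28e-07), *Tlr13* (0.62 ± 0.053, adjusted p = 3.86e-09), *Tlr4* (0.42 ± 0.039, adjusted p = 1.47e-08) and *Tlr6* (0.29 ± 0.089, adjusted p = 0.0128) were higher, so the LPS receptor was higher while its coreceptor was lower. These are 5 members lower, where 20.6% of all genes were, and 4 higher, where 18.8% were. Outside the group *Tlr5* was higher (0.79 ± 0.30, adjusted p = 0.0426), and *Tlr11* (0.09 ± 0.44, adjusted p = 0.89) and *Tlr12* (-0.05 ± 0.64, adjusted p = 0.96) were not called. The medians were -0.214 and 0.0408. The *Tlr6* call was lost without replicate 3 of confined WT (adjusted p = 0.0751) or replicate 3 of confined KO (0.0626). All 14 target genes were lower in KO (median -3.75), as were 9 of 12 transcription factor genes (1 higher), 8 of 12 inhibitor genes (1 higher) and 11 of 17 adaptor genes (2 higher), while 6 of 16 accessory genes were higher and 3 lower.

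With the labels pooled, all 10 members differed between LPS and nonconfined cells, and *Tlr1*, *Tlr3* and *Tlr6* stood well above their confined levels. *Cd14* (5.47 ± 0.044, adjusted p = 9.54e-28), *Tlr1* (2.39 ± 0.081, adjusted p = 7.86e-17) and *Tlr2* (2.15 ± 0.026, adjusted p = 1.12e-24) rose most, then *Tlr3* (1.52 ± 0.10, adjusted p = 9.77e-12), *Tlr6* (1.21 ± 0.063, adjusted p = 1.26e-13) and *Tlr7* (0.85 ± 0.047, adjusted p = 4.51e-13). *Tlr9* rose slightly (0.19 ± 0.060, adjusted p = 0.00636), a direction that turned when libraries were scaled to the same total (-0.30). *Tlr8* (-1.001 ± 0.062, adjusted p = 2.89e-12), *Tlr4* and *Tlr13* (-0.18 ± 0.037, adjusted p = 0.000184) fell. These are 7 members up, where 37.2% of all genes rose, and 3 down, where 34.3% fell, so among these 10 the share of falls is near that of all genes. This was read with the authors' normalization. With libraries scaled to the same total most called genes fell. Outside the group *Tlr5* (-2.50 ± 0.21, adjusted p = 7.7e-10), *Tlr11* (-2.90 ± 0.31, adjusted p = 2.56e-08) and *Tlr12* (-2.07 ± 0.45, adjusted p = 0.000307) all fell. The median was 1.03 over members and 0.0204 over all genes. *Tlr9* and *Tlr13* overlapped the nonconfined libraries.

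Against nonconfined cells of the same label, LPS libraries labelled WT had 6 members up (33.4% of all genes) and 2 down (29.4%), with *Tlr9* (0.11 ± 0.084, adjusted p = 0.258) and *Tlr13* (-0.03 ± 0.053, adjusted p = 0.593) not called. LPS libraries labelled KO had 7 up (33.4%) and 3 down (30.1%), with *Tlr13* at -0.33 ± 0.053, adjusted p = 1.32e-05. *Tlr9* and *Tlr13* were thus called under this label and not under the WT label, which is no test of a difference. Between the LPS labels themselves *Tlr9* (-0.13 ± 0.084) and *Tlr13* (-0.04 ± 0.053) were not called. With libraries scaled to the same total both were called as falls under the WT label too (-0.40 and -0.55). *Tlr2* rose by 2.26 ± 0.037 under the WT label and 2.03 ± 0.037 under the KO label. Under the KO label the *Tlr9* call (0.28 ± 0.084, adjusted p = 0.00722) was lost without replicate 1 of nonconfined KO (0.16, adjusted p = 0.0774) and with the compared conditions alone (0.28, 0.0509). Between the LPS labels limma called 0 members, in a background of 0% of all genes in either direction. At an unadjusted p below 0.05 there were 890 genes (4.98%) and 0 members, and edgeR and DESeq2 each called 0 genes. Each label mixes libraries low and high in *Ddx3y*, so this comparison cannot show a difference along that split. The libraries nearly without *Ddx3y* read 1951 and 2069 for *Tlr1*, and those high in it 2705 and 3036. *Cd14* read 96073 and 91141 against 81537 and 77902. *Tlr2*, *Tlr6*, *Tlr7*, *Tlr8* and *Tlr13* lay the way of *Tlr1*, *Tlr3* and *Tlr4* that of *Cd14*, and *Tlr9* overlapped. The difference along this split was not tested. With 2 libraries on each side values lie apart easily. The share of all genes that do so was not taken, so this is no result about the members. With the LPS libraries nearly without *Ddx3y* left out together (replicate 2 labelled WT and replicate 1 labelled KO), the same members were called in every comparison, 10 of 10 with the labels pooled, 8 labelled WT, 10 labelled KO and 0 between the labels. This setting was chosen after seeing the data, and the share of all genes called in it is not set beside these counts. With all libraries kept, most tested genes were called too, 37.2% up and 34.3% down with the labels pooled.

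In LPS cells all 14 target genes were higher than in nonconfined cells (median 7.87), with *Cxcl1* at 11.28 ± 0.16 and *Il12b* at 9.84 ± 0.075. Adaptor genes counted 14 up and 3 down of 17 (median 0.74), with *Irak3* at 2.97 ± 0.048 and *Ticam2*, the adaptor that bridges TLR4 to TRIF, at 2.32 ± 0.055. Inhibitor genes counted 10 up and 2 down (median 1.53), transcription factor genes 9 up and 1 down (median 1.93), and accessory genes 8 up and 6 down (median 0.00899). Confined and LPS cells were tested against the same nonconfined libraries, so their values are set side by side only.

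Confined cells were collected after 4 h and LPS cells the next day, so setting confined cells against LPS cells also compares unlike times. Set directly against LPS cells, confined WT cells had more *Cd14* (0.62 ± 0.054, adjusted p = 2.97e-09), *Tlr4* (0.80 ± 0.034, adjusted p = 2.42e-14) and *Tlr8* (0.72 ± 0.076, adjusted p = 5.38e-08) and less of the other called receptors. *Tlr1* (-2.33 ± 0.100, adjusted p = 2.74e-14) and *Tlr3* (-1.19 ± 0.12, adjusted p = 4.39e-08) lay furthest below LPS cells, then *Tlr6* (-0.96 ± 0.077), *Tlr9* (-0.44 ± 0.073), *Tlr7* (-0.32 ± 0.058) and *Tlr2* (-0.14 ± 0.032, adjusted p = 0.000622). That is 3 higher, where 24.5% of all genes were, and 6 lower, where 29.8% were (medians -0.231 and -0.0143). Outside the group *Tlr5* (1.54 ± 0.26, adjusted p = 3.66e-05) and *Tlr11* (1.23 ± 0.38, adjusted p = 0.00901) were higher, and *Tlr12* (-1.60 ± 0.55, adjusted p = 0.0185) was lower. *Tlr13* was not called (0.10 ± 0.046, adjusted p = 0.081), though it was called without replicate 2 of LPS labelled KO (0.12, adjusted p = 0.0181), with TMM scaling (0.17, 0.00406), with edgeR (0.17, 0.00458) and with DESeq2 (0.13, 0.0108). The *Tlr2* difference is small and turned with libraries scaled to the same total (0.15). It was not called with TMM scaling (-0.07, adjusted p = 0.0595) or with edgeR (-0.07, 0.0577). Over all settings its adjusted p ran from 6.26e-05 to 0.0595.

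In confined KO cells against LPS cells, *Tlr8* (1.51 ± 0.076, adjusted p = 1.47e-13), *Tlr4* (1.22 ± 0.034, adjusted p = 3.9e-18) and *Tlr13* (0.71 ± 0.046, adjusted p = 9.96e-12) were higher, 3 members where 30.3% of all genes were higher, a share near that of all genes. The other 7 were lower, where 32.5% of all genes were, led by *Tlr3* (-3.17 ± 0.12, adjusted p = 1.48e-15), *Tlr1* (-2.96 ± 0.100, adjusted p = 1.18e-16), *Cd14* (-2.38 ± 0.054, adjusted p = 8.71e-20) and *Tlr2* (-1.41 ± 0.032, adjusted p = 8.01e-20), then *Tlr9* (-0.85 ± 0.073), *Tlr6* (-0.67 ± 0.077) and *Tlr7* (-0.34 ± 0.058). The medians were -0.761 and 0.0268. With libraries scaled to the same total *Tlr7* turned (0.11, adjusted p = 0.0826) and was not called. In that setting most called genes were higher, so the shares above hold for the authors' normalization. Outside the group *Tlr5* (2.34 ± 0.26, adjusted p = 8.92e-08) and *Tlr11* (1.325 ± 0.38, adjusted p = 0.00434) were higher, and *Tlr12* (-1.65 ± 0.55, adjusted p = 0.0128) was lower. Of the target genes 13 of 14 were lower in confined WT than in LPS and 14 of 14 in confined KO (medians -1.61 and -5.6).

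Libraries differed in total, and the choice of scaling moves small changes. The shares of all genes set beside the members above are those with the authors' normalization, and they move with the scaling. Scaling each library to the same total of reads shifted the median of all genes by -0.22 for confinement in WT, 0.19 for its difference between genotypes, -0.48 for LPS with pooled labels (-0.50 and -0.47 for the WT and the KO label), 0.15 for confined KO against WT, and 0.28 and 0.44 for confined WT and KO against LPS. Read this way, *Tlr9* fell after LPS (-0.30, adjusted p = 0.000164), also under the WT label (-0.40, 0.000379) and the KO label (-0.20, 0.0439). *Tlr2* was higher in confined WT than in LPS (0.15, adjusted p = 6.26e-05), where *Tlr7* (-0.03, 0.654) and *Tlr9* (-0.15, 0.094) were not called and *Tlr13* was (0.38, 6.98e-08). In confined KO against LPS *Tlr7* was not called (0.11, 0.0826). *Tlr13* fell after LPS under the WT label (-0.55, 1.43e-09), and *Tlr6* responded higher in KO (0.45, 0.00529). The changes of *Cd14* and *Tlr2* with confinement and LPS and the fall of *Tlr3* in KO kept their direction and call.

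Markers of other cells were present and moved too. All 8 neutrophil genes fell with confinement in WT (median -0.848) and 3 fell in KO, and all 8 were higher in confined KO than in confined WT (median 1.31). Their sums were 238752, 243828 and 242192 in nonconfined WT, 369490.1, 332192 and 357354 in nonconfined KO, 154013, 146804 and 144581 in confined WT and 333025, 346015 and 329985 in confined KO. Under LPS they were 308802, 290063 and 292182 (labelled WT) and 276705, 312354 and 294381 (labelled KO). *S100a9* was the most abundant throughout. The neutrophil signal thus falls with confinement mainly in WT, where *Cd14* and *Tlr2* rise most. Its part in the members' results was not tested.

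Of 4 eosinophil genes 3 fell with confinement in WT and in KO, and in KO 3 were higher and 1, *Siglecf*, was lower, both nonconfined (-0.57 ± 0.10, adjusted p = 0.00108) and confined (-0.39 ± 0.10, adjusted p = 0.00372). The sums, with *Prg2* most abundant, were 28181, 27896 and 27812 in nonconfined WT, 67608, 63231 and 65185 in nonconfined KO, 7418, 6941 and 6883 in confined WT and 16396, 15911 and 16836 in confined KO. Under LPS they ran 39729.6, 23288 and 31432 (labelled WT) and 23085, 39326 and 32103 (labelled KO), in step with *Ddx3y*. Of the dendritic cell genes all 8 fell with confinement in both genotypes (medians -0.423 and -0.68), and after LPS 6 rose and 1 fell. Their sums, with *Cd74* most abundant, were 422827, 396324 and 402459.8 in nonconfined WT, 474367, 462117 and 469949 in nonconfined KO, 349649, 327540.0 and 337842 in confined WT and 340947, 323487 and 338149.8 in confined KO. Under LPS they were 534367, 461022 and 490756 and 465116, 522265 and 500369. Their part was not tested.

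With confinement, macrophage genes counted 1 up and 4 down of 8 in WT and 1 up and 5 down in KO (most abundant *Csf1r*), and mast cell and basophil genes 1 up and 3 down of 4 in both (*Cpa3*). T cell genes counted 3 down of 3 in both (*Cd3g*), B cell genes 1 down of 3 in both, with sums of 9.66 to 79.95 in all libraries, and conventional DC type 1 genes 1 up and 2 down of 5 in WT and 2 down in KO (*Itgae*). Plasmacytoid DC genes counted 1 up of 4 in WT and 2 down in KO (*Bst2*). After LPS with the labels pooled, neutrophil genes counted 4 up and 3 down, macrophage genes 2 and 5, eosinophil genes 0 and 4, mast cell and basophil genes 0 and 4, T cell genes 0 and 3, B cell genes 1 and 0, conventional DC type 1 genes 1 and 3 and plasmacytoid DC genes 3 and 1. In confined KO against confined WT, macrophage genes counted 3 higher and 1 lower, mast cell and basophil genes 4 and 0, dendritic cell genes 1 and 2, conventional DC type 1 genes 1 and 1, plasmacytoid DC genes 0 and 2, and T cell and B cell genes 1 and 0 each. Of the defining markers only *Siglech* was at 0 in a whole group, LPS labelled WT. The part of these cells was not tested.

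Promoter windows, the 250 bases before the transcript start, were read from RefSeq entries of the build GRCm38.p6. Entries were found for 7 of 10 members, not for *Cd14*, *Tlr4* or *Tlr7*. Of the 7 only *Tlr2* and *Tlr3* hold an NF-κB pattern (GGGNNTTNCC), and a part of it in their response was not tested. *Tlr1*, which also responded lower in KO, holds none. Over all 32851 such windows, 4.11% hold this pattern and 21.3% hold the IRF pattern AANNGAAA, so the IRF pattern in particular is common. In *Tlr2* the NF-κB pattern lies 172 to 163 bases before the start and IRF patterns at 191 to 184 and 145 to 138. In *Tlr3* they lie at 211 to 202 and 59 to 52. *Tlr1* and *Tlr6* have 2 entries each: the first holds 1 IRF pattern in *Tlr1* and 4 that partly overlap in *Tlr6*, on the reverse strand, and the other entry of each holds neither pattern. *Tlr8*, *Tlr9* and *Tlr13* also have neither. The windows are given in the direction of transcription with these patterns in capitals, to let their spacing be seen. That of *Tlr2* is chr3:83841609-83841858 and that of *Tlr3* chr8:45410381-45410630, both on the minus strand.
Tlr2: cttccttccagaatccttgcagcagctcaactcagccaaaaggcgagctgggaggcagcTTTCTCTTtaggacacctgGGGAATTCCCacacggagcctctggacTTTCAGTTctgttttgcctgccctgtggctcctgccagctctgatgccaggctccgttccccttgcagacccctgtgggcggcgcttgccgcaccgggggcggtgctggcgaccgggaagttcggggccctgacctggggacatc
Tlr3: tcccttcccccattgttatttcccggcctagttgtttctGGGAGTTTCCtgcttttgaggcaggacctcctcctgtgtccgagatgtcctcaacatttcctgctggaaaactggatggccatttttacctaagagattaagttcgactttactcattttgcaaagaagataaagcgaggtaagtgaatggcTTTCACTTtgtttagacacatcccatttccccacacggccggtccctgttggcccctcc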

How the data were processed

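The authors aligned paired, strand-specific reads with STAR 2.7.5a, counted them per gene with featureCounts 1.5.0 against the FAST DB annotation, and normalized them with DESeq2 in R 3.5.3. The deposited signal is these normalized counts for 62197 genes. Multiplying by each library's size factor recovered whole reads for 100% of nonzero values (tolerance 0.01), 33027230 to 61300021 reads a library. The 17875 genes that reached 10 normalized counts in 3 or more libraries were tested with limma 3.58.1 (trend) on log2 of the counts plus 1, with Benjamini-Hochberg correction across all genes of each comparison. R 4.3.3, edgeR 4.0.16, DESeq2 1.42.0, Python 3.11.15 and matplotlib 3.10.9 were used. Alternatives were other pseudocounts, filters, scalings, tests, calling thresholds, the compared conditions alone, a replicate block, each library left out, and, added after seeing the data, the LPS libraries low in *Ddx3y* left out. Members and lists (adaptor and proximal kinase, accessory, inhibitor, transcription factor and target genes, and markers of dendritic cells, conventional DC type 1, plasmacytoid DC, macrophages, neutrophils, eosinophils, mast cells and basophils, B cells and T cells) were chosen with earlier results of these data known. Beyond members, the genes named are *Pla2g4a*, *Tlr5*, *Tlr11*, *Tlr12*, from each list at most the 4 called genes with the largest changes and a mean of 100 counts or more, the most abundant marker and markers at 0, the genes most alike each member, and *Ddx3y* and *Xist*, chosen after their values were seen.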

Additional observations from a re-analysis of the deposited data

Results flagged for a closer look

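Tested as the change with confinement in KO minus that in WT, 7 of the 10 members differed between the genotypes at an adjusted p below 0.05. Of these 4 responded lower in KO, where 15.6% of all tested genes did, and 3 higher, where 10.2% did. The log2 differences were -3.06 for *Cd14*, -2.21 for *Tlr3*, -1.51 for *Tlr2*, -0.53 for *Tlr1*, 0.77 for *Tlr8*, 0.38 for *Tlr4* and 0.37 for *Tlr13*. The *Tlr1* call was lost without replicate 1 of confined WT (adjusted p = 0.0522) and with libraries scaled to the same total (0.0891).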

How the results depend on the processing

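The data are 3 libraries a group of semiadherent cells in which markers of other cell types are also present, and they give RNA levels, not receptor protein or signalling. Genotype goes with the presence of male cells, and the LPS labels go against *Pla2g4a* and *Ddx3y*. No group is labelled as an untreated control kept for the 4 h of confinement or the night after LPS. With calls limited to a log2 fold change beyond 1, the members called were 2 for confinement in WT, 2 in KO, 3 for their difference, 6 for LPS pooled, 5 and 6 for the WT and the KO label, 0 for KO against WT nonconfined and 3 confined, and 2 and 6 for confined WT and KO against LPS. The genes called were then 3400, 2139, 1371, 5188, 4889, 4986, 206, 1805, 2647 and 4227 in the same order. With calls at 1.5-fold and p of 0.05 before correction, members were 2 for confinement in WT, 4 in KO, 4 for their difference and 0 for KO against WT nonconfined. Genes were 6167, 4227, 2956 and 1000 for these, 8238 for LPS pooled, 3475 for KO against WT confined, 4978 and 6970 for confined WT and KO against LPS, and 316 between the LPS labels.

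With libraries scaled to the same total, and among members called with either scaling, directions turned for *Tlr13* with confinement in WT (-0.18), *Tlr9* with LPS pooled (-0.30), labelled WT (-0.40) and labelled KO (-0.20), *Tlr2* in confined WT against LPS (0.15) and *Tlr7* in confined KO against LPS (0.11). The share of called genes that were higher moved from 49.8% to 32.7% for confinement in WT, 39.5% to 70.7% for the genotype difference, 52% to 26.4% for LPS pooled, 53.1% to 25.5% and 52.6% to 26.2% for the WT and the KO label, 53.8% to 42% and 47.7% to 69.7% for KO against WT nonconfined and confined, and 45.2% to 75% and 48.2% to 77.2% for confined WT and KO against LPS. Leaving out 1 library, genes called for KO against WT nonconfined ran from 756 (without replicate 1 of nonconfined KO) to 2097 (without replicate 2), and between the LPS labels from 0 to 3 (without replicate 2 labelled WT). Between the LPS labels there was 1 gene with no filter and 20 with the LPS libraries low in *Ddx3y* left out, a setting added after seeing the data. With the replicate block, *Tlr9* was not called between nonconfined genotypes (-0.29, adjusted p = 0.0548).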

Other observations

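Across the 18 libraries, which fall into 6 groups, the profiles most alike those of the members by Pearson r, among 10544 genes, were these. *Cd14* was nearest *Dusp5* (0.9979) and *Gna13* (0.9975), *Tlr2* nearest *Ptges* (0.9986) and *Stx11* (0.9985), and *Tlr4* nearest *Atp6v0d2* (0.9917) and *Tspan5* (0.9898). *Tlr1* was nearest *Ccl7* (0.9946) and *Cyria* (0.9939), and *Tlr6* nearest *Flii* (0.9819) and *Rhob* (0.9817). Of the endosomal receptors, *Tlr3* was nearest *Ifi203* (0.9895) and *Oas2* (0.9889), *Tlr7* nearest *Ralgds* (0.9899) and *Pcx* (0.9866), *Tlr9* nearest *Ctnnd1* (0.949) and *Itgax* (0.9379), *Tlr8* nearest *Plekhm1* (0.9783) and *Klf4* (0.9726) and *Tlr13* nearest *Adgre5* (0.9763) and *Aldh2* (0.9614). *Tlr9* and *Tlr13* had the least close neighbours.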
